A study of Mus musculus with 4 samples.

Results

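The genes described here are those of the mouse mitochondrial genome, taken as every gene whose symbol in the deposited tables starts with mt-. There were 37 of them among the 55335 genes in the counts, of which 13 encode proteins, 2 encode rRNAs and 22 encode tRNAs. RNA was sequenced from AB2.2 mouse ESCs, an established embryonic stem cell line, in 2 control libraries (replicates 1 and 2) and 2 libraries of cells given 50 mM lactate for 24 h (replicates 1 and 2). Cells of both groups grew on mouse embryonic fibroblast feeders in medium with 1 µM PD0325901 (a MEK inhibitor), 3 µM CHIR99021 (a GSK3 inhibitor), leukemia inhibitory factor at 1000 U/ml and fetal bovine serum at 15%. The labels number the replicates without saying what a number marks or whether the cultures were separate, so p-values measure the spread between these libraries, which may be technical.

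The mitochondrial genome is a small circle that is transcribed from both strands into long precursors. In the usual view, tRNAs lie between most of the mRNAs and rRNAs, and cutting them out releases the other transcripts. The mRNAs encode core subunits of the respiratory chain and the ATP synthase, which are assembled with many subunits encoded in the nucleus, and the rRNAs and tRNAs serve the translation of these mRNAs alone. RNA polymerase, transcription factors and RNA-binding proteins for this genome are all encoded in the nucleus.

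All positions are from GENCODE release M21 on GRCm38, where the 37 genes are annotated on chromosome M between bases 1 and 15422. The mt-Nd6 gene and 8 of the tRNA genes lie on the minus strand. The sources used here do not say whether reads were counted by strand, so reads from a gene and from the opposite strand at the same place cannot be told apart. Genes of this genome also overlap, and the longest overlap is the 43 bases shared by the end of mt-Atp8 and the start of mt-Atp6 (chrM:7927-7969). It is shown in capitals with 30 bases on either side (chrM:7897-7999, plus strand), because reads there cannot be given to 1 of the genes. The 7 bases shared by mt-Nd4l and mt-Nd4 (chrM:10167-10173) are shown in the same way (chrM:10137-10203, plus strand).
mt-Atp8 to mt-Atp6: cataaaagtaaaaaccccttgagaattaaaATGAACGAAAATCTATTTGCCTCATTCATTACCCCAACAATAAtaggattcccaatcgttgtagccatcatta
mt-Nd4l to mt-Nd4: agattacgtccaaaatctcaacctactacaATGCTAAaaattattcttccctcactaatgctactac

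The tRNA genes that the results turn on are printed whole, 5′ to 3′ on their own strand, with the anticodon in capitals. The tRNAs for alanine (mt-Ta, chrM:5018-5086), asparagine (mt-Tn, chrM:5089-5159), cysteine (mt-Tc, chrM:5192-5257) and tyrosine (mt-Ty, chrM:5260-5326) are neighbours on the minus strand between mt-Nd2 and mt-Co1. Those for isoleucine (mt-Ti, chrM:3706-3774), glycine (mt-Tg, chrM:9391-9458), lysine (mt-Tk, chrM:7700-7764) and leucine (mt-Tl1, chrM:2676-2750) are on the plus strand.
mt-Ta: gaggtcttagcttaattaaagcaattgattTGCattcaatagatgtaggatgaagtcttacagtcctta
mt-Tn: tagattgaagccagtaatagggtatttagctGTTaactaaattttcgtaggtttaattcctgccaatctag
mt-Tc: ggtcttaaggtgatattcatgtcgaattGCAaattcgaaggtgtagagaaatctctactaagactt
mt-Ty: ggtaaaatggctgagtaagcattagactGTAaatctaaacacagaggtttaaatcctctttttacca
mt-Ti: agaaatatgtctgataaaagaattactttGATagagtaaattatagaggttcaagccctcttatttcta
mt-Tg: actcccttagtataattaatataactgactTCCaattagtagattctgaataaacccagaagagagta
mt-Tk: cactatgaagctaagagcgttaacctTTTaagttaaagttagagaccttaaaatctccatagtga
mt-Tl1: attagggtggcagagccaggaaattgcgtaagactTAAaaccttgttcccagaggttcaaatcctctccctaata
These genes are 65 to 75 bases long. They are shorter than the sequenced fragments by the estimate of RSEM, which gave them an effective length of 0. Counts on a tRNA gene may therefore come from longer RNA that spans it, and mature tRNA cannot be told apart in them.

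The nuclear genome holds copies of parts of the mitochondrial genome, and these bear on the counts of several members. A search of the annotated transcripts found 11 nuclear genes that matched an mt- gene with at least 95% identity over 100 bases or more. Of these, 7 are pseudogenes that lie side by side on the minus strand of chromosome 1 between bases 24611535 and 24616197. The copies of mt-Nd4 (Gm28439, 876 bases), mt-Nd4l (Gm10222, 294 bases), mt-Co3 (Gm28437, 783 bases), mt-Atp6 (Gm10925, 678 bases) and mt-Co2 (Gm28661, 681 bases) matched with no mismatch. A stretch of 60 bases that mt-Co2 (chrM:7313-7372, plus strand) and Gm28661 (chr1:24615206-24615265, minus strand) share letter for letter is given first, then the start of mt-Nd3 (chrM:9459-9518, plus strand) and of its copy Gm28438 (chr1:24613060-24613119, minus strand), and last a stretch of mt-Co1 (chrM:5787-5846, plus strand) and of its copy Gm13340 on chromosome 2 (chr2:22589129-22589188, minus strand). Capitals mark bases that differ within a pair.
mt-Co2 and Gm28661: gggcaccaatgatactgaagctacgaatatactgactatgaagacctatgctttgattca
mt-Nd3: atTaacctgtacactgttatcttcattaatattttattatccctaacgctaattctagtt
Gm28438: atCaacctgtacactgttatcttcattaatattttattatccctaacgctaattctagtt
mt-Co1: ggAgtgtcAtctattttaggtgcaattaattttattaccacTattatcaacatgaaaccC
Gm13340: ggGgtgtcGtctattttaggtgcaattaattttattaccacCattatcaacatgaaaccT
Gm28438 had 1 mismatch to mt-Nd3 in 345 bases, whereas Gm13340 had 37 mismatches to mt-Co1 in 1545 bases.

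The libraries held between 18067562 and 19077885 counts on genes, and CPM values (counts scaled to a common library total) are normalized by the TMM method. The ES cell markers Pou5f1, Nanog and Sox2 stood at 290 to 517, 753 to 971 and 341 to 525 CPM in the 4 libraries, and markers of feeder fibroblasts were present too, with Col1a1 at 194 to 294 CPM. All 16 fibroblast markers were detected, and summed to 1349 and 1705 CPM in the control libraries and 1320 and 1375 CPM in those with lactate. The share of the feeders in the mitochondrial counts was not tested, and in bulk libraries fewer cells of a type and less RNA per cell cannot be told apart.

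Mitochondrial genes held 989391 counts in control replicate 1, 463744 in control replicate 2, 1060369 in lactate replicate 1 and 534194 in lactate replicate 2. The high libraries were therefore the replicate 1 libraries of both groups. The mRNAs made up 98.9% to 99.1% of these counts in each library, the rRNAs 0.532% to 0.694% and the tRNAs 0.298% to 0.426%. Of the 37 genes, 35 passed the filter on low counts. The 2 that did not were mt-Tf (tRNA for phenylalanine), with 4 to 17 counts, and mt-Tv (tRNA for valine), with at most 3 counts in a library.

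**Figure D1:**
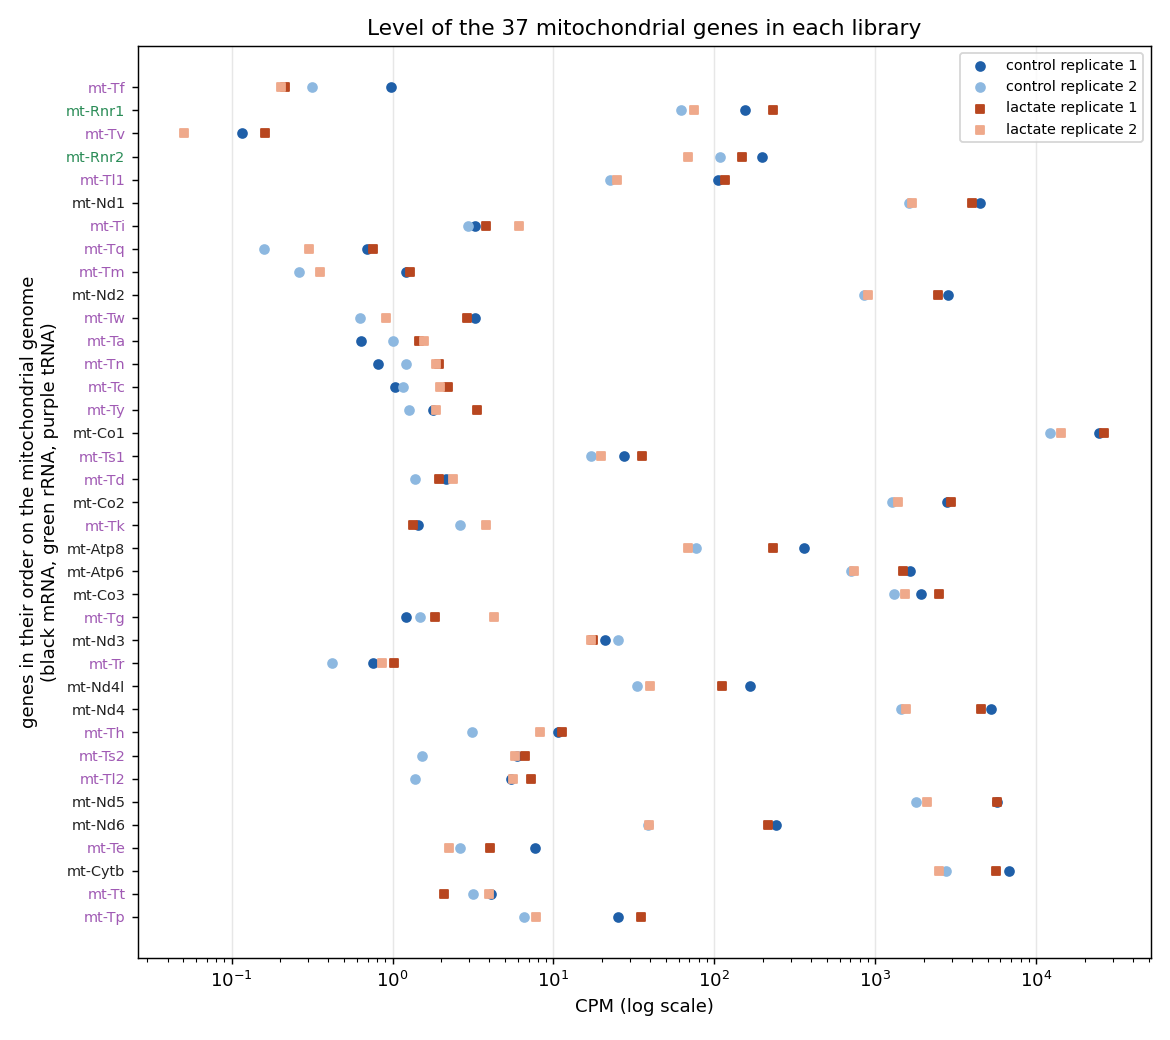
The x axis gives CPM on a log scale and the y axis the 37 mitochondrial genes in genome order, with 1 point per library (circles control, squares lactate, dark replicate 1, light replicate 2). For most mRNAs the dark points of both groups lie together above the light ones, as for mt-Nd6 at 217 and 243 CPM against 38.6 and 39.3 CPM; mt-Tv in control replicate 2, without counts, has no point.

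Levels of different genes were compared per length, from the TPM of the RSEM tables. The mt-Co1 mRNA, for the catalytic subunit 1 of cytochrome c oxidase, stood at 29723 and 15004 TPM in the control libraries (replicates 1 and 2) and at 34549 and 17621 TPM in the lactate libraries. The mt-Co2 mRNA, for subunit 2 of the same enzyme, stood at 29079, 13584, 35401 and 15459 TPM in the same order. Next came mt-Co3 (8594 to 18407 TPM), mt-Atp6 (5843 to 11975 TPM), mt-Cytb of complex III (4586 to 12032 TPM) and mt-Nd1 of complex I (3727 to 10053 TPM). The other complex I mRNAs mt-Nd4, mt-Nd5, mt-Nd2, mt-Nd4l and mt-Nd3 followed with means over the 4 libraries of 5175, 3705, 3547, 3473 and 2246 TPM. The TPM of mt-Nd4l rests on an effective length of 16.2 to 22.5 bases and that of mt-Nd3 on 42.51 to 53.95 bases. Their places in this order are therefore uncertain.

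The mt-Nd6 mRNA, the complex I subunit on the minus strand, had 97.2 to 443 TPM, and the rRNAs mt-Rnr1 and mt-Rnr2 had 145 to 578 and 76.9 to 204 TPM. When each level was divided by the summed mitochondrial TPM of its library, only 2 neighbours in this order did not overlap between libraries, mt-Co2 above mt-Co3 and mt-Nd3 above mt-Rnr1. The other neighbours did not differ beyond their spread. The order of mt-Nd3 and mt-Rnr1 depends on the source. In the count table mt-Nd3 had 329 to 480 counts over 348 bases, and mt-Rnr1 had 1171 to 4305 over 955 bases. With the counts of the nuclear copies added, mt-Nd3 took 0.690% to 1.17% of the mitochondrial total per length. The range of mt-Rnr1 was then 0.246% to 0.395%. The study's methods do not say how RNA was selected for the libraries, so the rank of rRNAs beside mRNAs may not be that in the cells. RSEM listed the tRNAs at 0 with an effective length of 0, so their levels per length come only from the counts. It also listed mt-Atp8 at 0 TPM in 3 libraries and at 24237 TPM in lactate replicate 2, where its effective length was 1.05 bases, although the gene had 1358 to 6198 counts in every library. The TPM of mt-Atp8 is therefore not interpreted. It remained in the summed TPM used above, where it made up 25.3% in lactate replicate 2 and so lowered the other shares of that library.

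With the counts of the nuclear copies added and divided by gene length, mt-Co1 took a mean of 28.8% of the mitochondrial total, mt-Co2 14.7%, mt-Co3 10.2%, mt-Cytb 8.51% and mt-Atp6 8.40%. On this scale mt-Nd2 took 3.57%, mt-Atp8 1.81%, mt-Nd4l 1.08% and mt-Nd3 0.883%. The highest tRNA gene, mt-Tl1, lies between mt-Rnr2 and mt-Nd1 and took 1.77%.

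The mt-Co1 gene alone held 42.8% and 50.2% of the mitochondrial counts in the control libraries (replicates 1 and 2) and 46.6% and 52.7% in the lactate libraries. Its share was lower in both replicate 1 libraries than in either replicate 2 library. The shares of mt-Nd5 (9.97%, 7.36%, 9.94% and 7.79% in the same order) and mt-Nd4 (9.16%, 5.89%, 7.99% and 5.73%) were higher in both replicate 1 libraries. The mt-Cytb share was among those that separated the groups instead, at 11.8% and 11.2% in the control libraries and 9.91% and 9.22% in those with lactate. The mt-Atp6 share was also lower with lactate (2.89% and 2.91% against 2.62% and 2.73%). That of mt-Rnr1 was higher (0.269% and 0.253% in the control libraries, 0.406% and 0.277% with lactate). These shares sum to a fixed total, so a higher share of one gene lowers the others, and they were not tested.

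**Figure D2:**
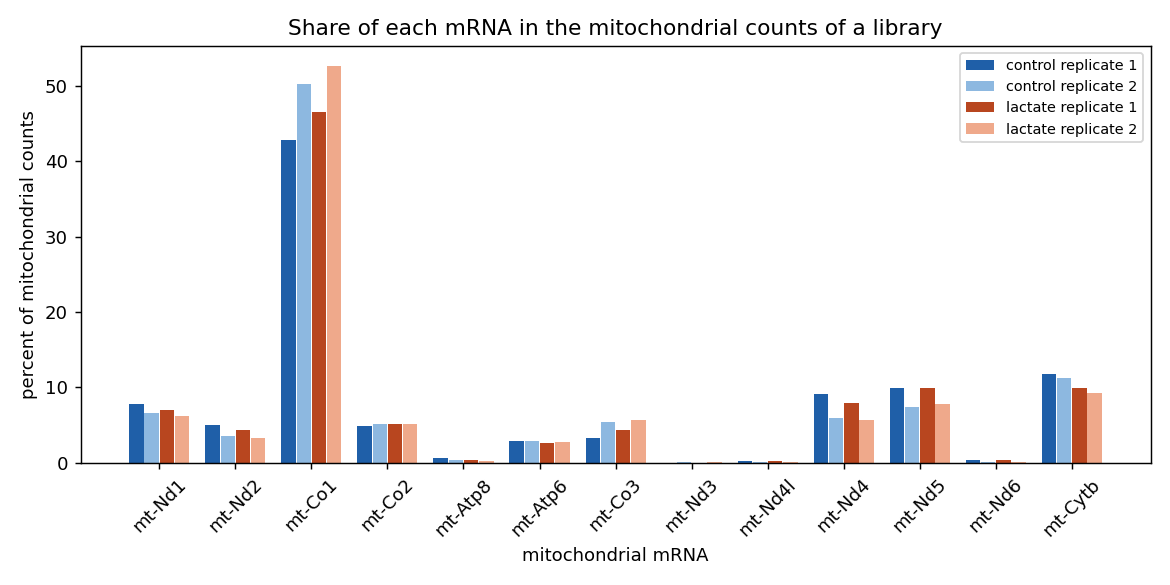
Bars give the percent of the mitochondrial counts (y axis) that each of the 13 mRNAs (x axis, genome order) took in each library. The mt-Co1 bars reach 42.8% to 52.7%, and the mt-Nd4 bars are higher in replicate 1 than in replicate 2 in both groups.

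The first comparison asked whether mitochondrial transcripts changed with lactate. As a share of all gene counts, the members made up 5.48% and 2.43% for the control libraries (3.95% ± 2.15, SD, n = 2) and 5.72% and 2.82% for the lactate libraries (4.27% ± 2.05, SD, n = 2). The difference of 0.315 percentage points was smaller than the spread within either group, with p = 0.667 in an exact two-sided permutation test, where 0.333 is the smallest p that 2 against 2 libraries allow. Within replicate 1 the lactate library was 0.243 percentage points above the control library, and within replicate 2 it was 0.388 points above.

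None of the 35 genes tested was called with lactate by edgeR's quasi-likelihood test at an adjusted p under 0.05 and a change of over 2-fold, where 0.900% of all 18661 genes tested were called. At an adjusted p under 0.05 alone there was again none of the members, beside 0.991% of all genes tested, and DESeq2 called 0 members and 2.01% of all genes tested. At an unadjusted p under 0.05 there were 4 members, all tRNAs, beside 23.1% of all genes tested. The median log2 fold change of the members was 0.17, beside 0.01 for all genes tested. The 0 calls became 10 of 35 without lactate replicate 1, where 3.56% of all genes tested were called, and 3 of 35 without lactate replicate 2, where 4.75% were, and the median then ranged from -0.46 to 0.95 over the libraries left out.

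Among the mRNAs, the median log2 fold change with lactate was -0.13, and 4 of 13 values were above 0. The mt-Co1 mRNA had 24468 and 12268 CPM in the control libraries and 26568 and 14258 CPM in those with lactate (replicates 1 and 2), which overlap. Its log2 fold change was 0.15 ± 0.42 (SE) with an adjusted p of 0.873 in edgeR. The mt-Cytb mRNA had 6769 and 2749 CPM in the control libraries and 5655 and 2497 CPM in those with lactate, a log2 fold change of -0.22 ± 0.51 (SE, adjusted p = 0.843 in edgeR).

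The SE of the 13 mRNAs in this comparison ran from 0.17 to 0.97 on the log2 scale, the latter for mt-Nd6, so the spread between libraries limited what could be detected. The mt-Nd3 mRNA, for a small complex I subunit, was the only mRNA whose libraries did not overlap between the groups, at 20.8 and 25.3 CPM in the control libraries and 17.7 and 17.1 CPM in those with lactate. A lower level without overlap was found for 25.9% of all genes tested. Its log2 fold change of -0.41 (adjusted p = 0.221 in edgeR) became 0.19 when the counts of its nuclear copy were added.

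The fold changes of the rRNAs had opposite signs, and neither passed the test. The small-subunit rRNA mt-Rnr1 had 154 and 61.7 CPM in the control libraries and 232 and 75.0 CPM in those with lactate, a log2 fold change of 0.51 ± 0.59 (SE). The large-subunit rRNA mt-Rnr2 had 198 and 108 CPM in the control libraries and 148 and 69.0 CPM in those with lactate, a log2 fold change of -0.50 ± 0.41 (SE). Both overlapped between the groups, but within each replicate number mt-Rnr1 was higher and mt-Rnr2 lower in the lactate library.

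Counts on the tRNA genes do not separate mature tRNA from longer RNA over the same bases. The tRNA genes had a median log2 fold change of 0.48 with lactate, and 17 of the 20 tested were above 0. In 8 of them the lower lactate value exceeded the higher control value, namely mt-Ti, mt-Ta, mt-Tn, mt-Tc, mt-Ty, mt-Tg, mt-Tr and mt-Tl2. Over all 35 members these 8 do not stand above the 27.0% of all genes tested. All 8 lie among the 20 tRNAs, where they make up a larger share than 27.0%, and this difference was not tested. Of the 8, mt-Ta, mt-Tn, mt-Tc and mt-Ty are the minus-strand neighbours whose sequences are given above.

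The values of these tRNAs rest on few reads. The mt-Tc gene had 18 and 22 counts in the control libraries and 41 and 39 counts in those with lactate (replicates 1 and 2), and a log2 fold change of 0.92 ± 0.27 (SE). Its adjusted p of 0.126 in edgeR was the smallest among the members. For mt-Tn there were 14 and 23 counts in the control libraries and 36 and 37 counts in those with lactate, a log2 fold change of 0.90 ± 0.31 (SE, adjusted p = 0.158 in edgeR).

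The mt-Ta gene followed the same order with 11 and 19 against 27 and 31 counts, and mt-Ty with 31 and 24 against 62 and 37 counts. The highest log2 fold change belonged to mt-Tg, at 1.18 ± 0.45 (SE, adjusted p = 0.188 in edgeR), which lies just before mt-Nd3. Its 84 counts in lactate replicate 2 stood apart from 34 in lactate replicate 1 and from 21 and 28 in the control libraries. Without lactate replicate 2 the value was 0.44 (adjusted p = 0.602 in edgeR), and without lactate replicate 1 it was 1.64 (adjusted p = 0.00183 in edgeR).

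The neighbouring tRNAs mt-Th (histidine), mt-Ts2 (serine) and mt-Tl2 (leucine), between mt-Nd4 and mt-Nd5, were low in 1 library. Control replicate 2 had 59, 29 and 26 counts on them, whereas the other 3 libraries had 163 to 209, 103 to 124 and 94 to 134 counts. Their log2 ratios of lactate to control were 0.07, 0.16 and 0.41 within replicate 1 and 1.41, 1.92 and 2.02 within replicate 2. A difference between the replicate numbers in the effect of lactate was not tested.

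**Figure D3:**
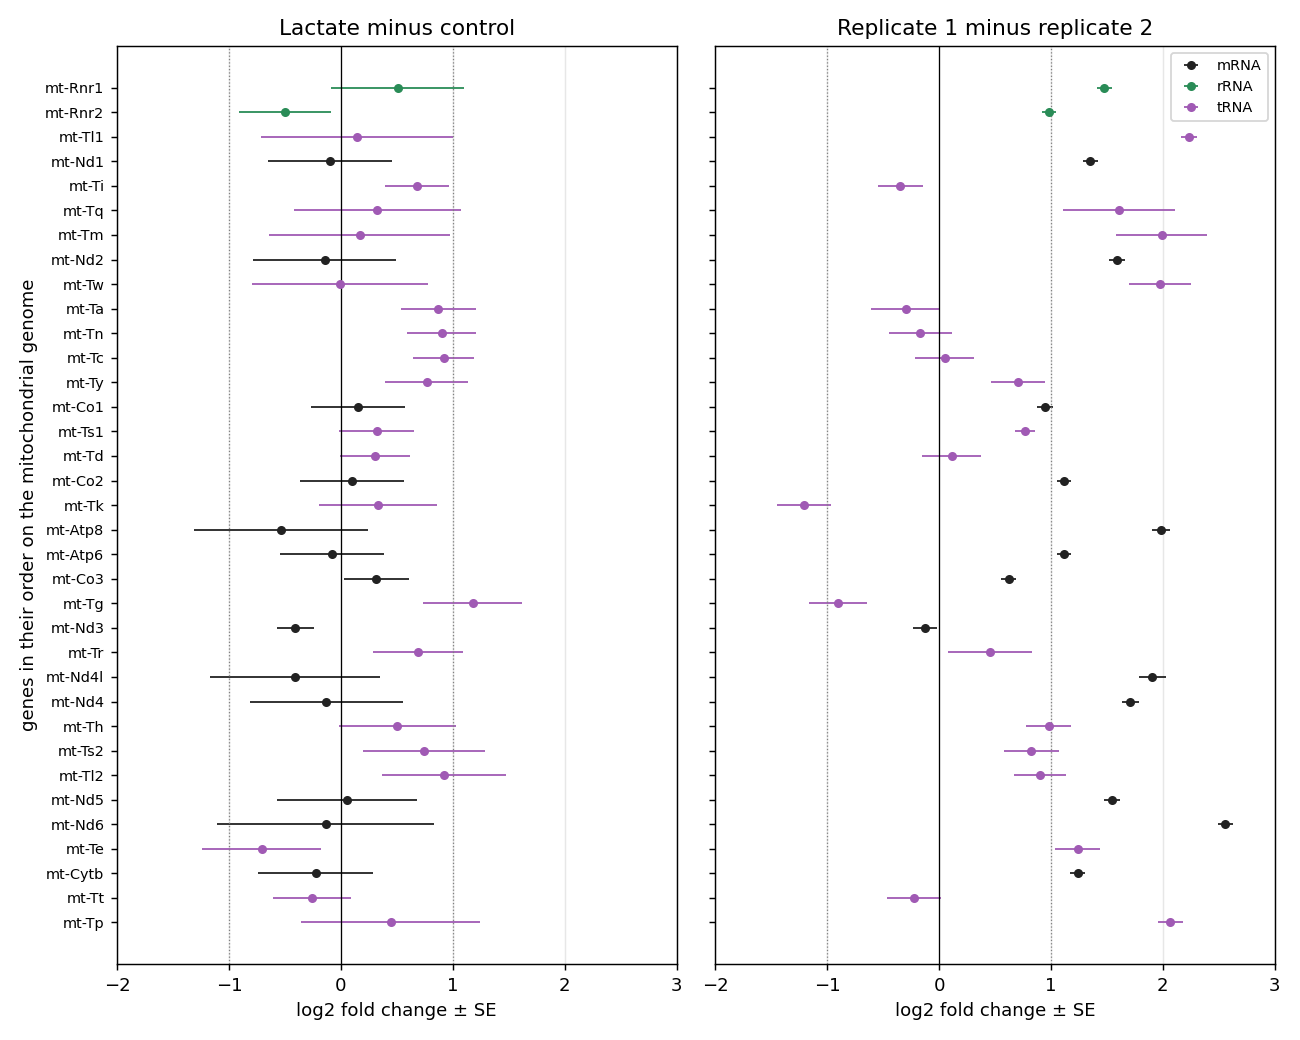
Points give the log2 fold change with its SE (x axis) of the 35 tested genes in genome order (y axis), for lactate against control on the left and replicate 1 against replicate 2 on the right, with dotted lines at a 2-fold change. The mRNAs on the left lie between -0.54 and 0.32 with long error bars, and 12 of 13 on the right lie above 0, up to 2.56.

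The second comparison set the replicate 1 libraries against the replicate 2 libraries, with the group as a term in the fit. That fit leaves 1 residual degree of freedom, so its SE and p-values lean on variance that edgeR pools over genes. The mitochondrial share of the gene counts was 2.25 times as high in replicate 1 as in replicate 2 in the control and 2.03 times as high in the lactate group. The difference of the means, 2.97 percentage points, had p = 0.333 in an exact two-sided permutation test, the smallest value the design allows. Of the 35 genes tested, 17 were called higher in replicate 1 by edgeR, where 0.750% of all genes tested were called higher, and 1 was called lower, where 1.13% were. Together these are 18 of 35, beside 1.88% of all genes tested. The members had a median log2 fold change of 0.98, beside -0.01 for all genes tested.

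These calls depend on the term for the group and on the method. Without that term edgeR called none of the 35 (22 at an unadjusted p under 0.05) and none of all 18661 genes. With the term, limma-trend on the FPKM or TPM called none of the 15 members that could be tested (12 at an unadjusted p under 0.05). It called 0% to 0.00999% of all genes tested. DESeq2 with the term called 13 of 35 members and 0.439% of all genes tested. With 1 library left out and no group term, edgeR called 2 members of 3 genes called in all without control replicate 1, 0 of 0 without control replicate 2 (20 members at an unadjusted p under 0.05), 5 of 6 without lactate replicate 1 and 2 of 4 without lactate replicate 2.

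Of the 13 mRNAs, 12 were higher in replicate 1 at an adjusted p under 0.05, a limit that 16.0% of all genes tested passed in this direction, and 10 of these by over 2-fold. The median over the mRNAs was 1.35. The same 12 mRNAs had both replicate 1 libraries above both replicate 2 libraries, as did 18.6% of all genes tested. The exception was mt-Nd3, at -0.13 ± 0.10 (SE, adjusted p = 0.395 in edgeR).

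In the count table the complex I mRNA mt-Nd6 had the highest fold change of the mRNAs. It had 243 CPM in control replicate 1 and 217 CPM in lactate replicate 1, against 38.6 and 39.3 CPM in the replicate 2 libraries. Its log2 fold change was 2.56 ± 0.07 (SE), or 5.89-fold, with an adjusted p of 2.54e-15 in edgeR. The RSEM expected counts gave 989 and 600 for it in replicate 1 and 239 and 321 in replicate 2 (control and lactate), against 4198, 4032, 732 and 775 counts in the count table. The log2 fold change was 1.60 in that source, below those of mt-Atp8 (1.82), mt-Nd4 (1.75) and mt-Nd2 (1.67) there, and reads on the opposite strand cannot be told apart in the counts.

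Next among the mRNAs came mt-Atp8 (log2 fold change 1.98), a small ATP synthase subunit, and the complex I subunits mt-Nd4l (1.91), mt-Nd4 (1.71), mt-Nd2 (1.59), mt-Nd5 (1.55) and mt-Nd1 (1.35). The value of mt-Nd4l was 0.08 with the RSEM expected counts, where its effective length was 16.2 to 22.5 bases. The mt-Nd5 mRNA had 5702 and 5673 CPM in replicate 1 and 1800 and 2110 CPM in replicate 2 (control and lactate). The 6 mRNAs mt-Cytb (1.24), mt-Co2 (1.12), mt-Atp6 (1.12), mt-Co1 (0.95), mt-Co3 (0.62) and mt-Nd3 (-0.13) had lower values. All 3 cytochrome c oxidase mRNAs were thus below the median of the mRNAs, and mt-Co1 and mt-Co3 were under 2-fold. The mt-Co3 mRNA had 1916 and 2485 CPM in replicate 1 and 1312 and 1533 CPM in replicate 2.

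Both rRNAs were higher in replicate 1 at an adjusted p under 0.05, mt-Rnr1 with a log2 fold change of 1.48 ± 0.07 (SE) and mt-Rnr2 with 0.98 ± 0.06 (SE), of which mt-Rnr1 passed 2-fold.

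Counts on the tRNA genes were less uniform, with log2 fold changes between -1.21 and 2.23 and a median of 0.74. At an adjusted p under 0.05, 11 of 20 were higher in replicate 1 and 2 were lower, and 6 and 1 of these passed 2-fold. Of all genes tested, 16.0% were higher and 16.4% lower at this limit, and 0.750% and 1.13% also passed 2-fold, so the tRNAs that were lower make up no larger a share than among all genes at an adjusted p under 0.05. The highest was mt-Tl1, with 1832 and 2174 counts in replicate 1 and 427 and 491 counts in replicate 2 (control and lactate). Next came mt-Tp for proline (2.07), mt-Tm for methionine (1.99) and mt-Tw for tryptophan (1.98). Few reads lie behind mt-Tm (5 to 24 counts in a library) and mt-Tw (12 to 56 counts).

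The tRNA gene called lower, mt-Tk, lies between mt-Co2 and mt-Atp8, 2 mRNAs that were higher in replicate 1. It had 25 counts in both replicate 1 libraries and 50 and 75 counts in replicate 2, a log2 fold change of -1.21 ± 0.24 (SE, adjusted p = 7.86e-04 in edgeR). DESeq2 gave it -1.18 with no adjusted p, so it was not called there. A lower level without overlap between the replicate numbers was found for 20.5% of all genes tested. The mt-Tg gene, between mt-Co3 and mt-Nd3, was lower at -0.90 (adjusted p = 0.0105 in edgeR), but its libraries overlapped. Its log2 ratio of replicate 1 to replicate 2 was -0.28 within control and -1.22 within lactate. The value was 0.047 in a fit without lactate replicate 2, which also lacked the group term. Of the minus-strand neighbours, mt-Ta, mt-Tn and mt-Tc did not pass the test, with -0.30, -0.17 and 0.05, whereas mt-Ty was higher at 0.70 (adjusted p = 0.0310 in edgeR) with overlapping libraries.

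Counts fell on both the mitochondrial genes and their copies on chromosome 1. Gm28661 held 51.2% to 55.4% of the counts of its pair with mt-Co2, Gm10925 52.9% to 58.4% of those with mt-Atp6, and Gm28437 43.7% to 47.6% of those with mt-Co3. For Gm10222 and mt-Nd4l this share was 42.3% to 50.7%, and for Gm28439 and mt-Nd4 it was 4.32% to 7.73%. The study's methods name the gene counting of STAR, which counts reads with 1 match, and counts on both genes of an identical pair do not follow from that setting alone; the way they arose was not tested. From sequence alone, a read inside these identical stretches cannot be given to the nuclear or the mitochondrial gene. Gm28438 held 71.3% to 88.3% of the counts of its pair with mt-Nd3. Copies with more mismatches held few counts, such as Gm13340 with 141 to 231 against 232771 to 493882 on mt-Co1. Few mismatches did not always go with a high share, since Gm29216, with 1 mismatch to mt-Co1 in 483 bases, held 0.290% to 0.698% of its pair. That share is taken over all 1545 bases of mt-Co1. These shares are from the count table and differ in RSEM. There Gm29216 held 0.398% and 0.335% in replicate 1 and 3.76% and 5.54% in replicate 2 (control and lactate). Gm10925 held 21.5% to 26.5% there, Gm28661 30.4% to 36.2% and Gm28437 34.4% to 42.9%.

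All copies together took 0.759% and 0.353% of the gene counts in the control libraries and 0.765% and 0.436% in those with lactate (replicates 1 and 2), the same order as the mitochondrial genes. The copies on chromosome 1 were also higher in replicate 1 in edgeR at an adjusted p under 0.05, with log2 fold changes of 2.46 for Gm28439, 1.65 for Gm10222, 1.32 for Gm10925, 1.08 for Gm28661, 0.70 for Gm28438 and 0.51 for Gm28437. Gm29216, which matches the end of mt-Co1, did not pass the test, at -0.02.

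With the copies added to the genes they match, a choice made after the data were seen, mt-Nd3 went from -0.13 to 0.55 (adjusted p = 2.12e-05 in edgeR), so that all 13 mRNAs were then higher in replicate 1. The values of mt-Nd4l (1.79), mt-Atp6 (1.23), mt-Co2 (1.10) and mt-Co3 (0.57) kept their direction. The number of members called stayed at 18 between the replicate numbers and at 0 with lactate.

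**Figure D4:**
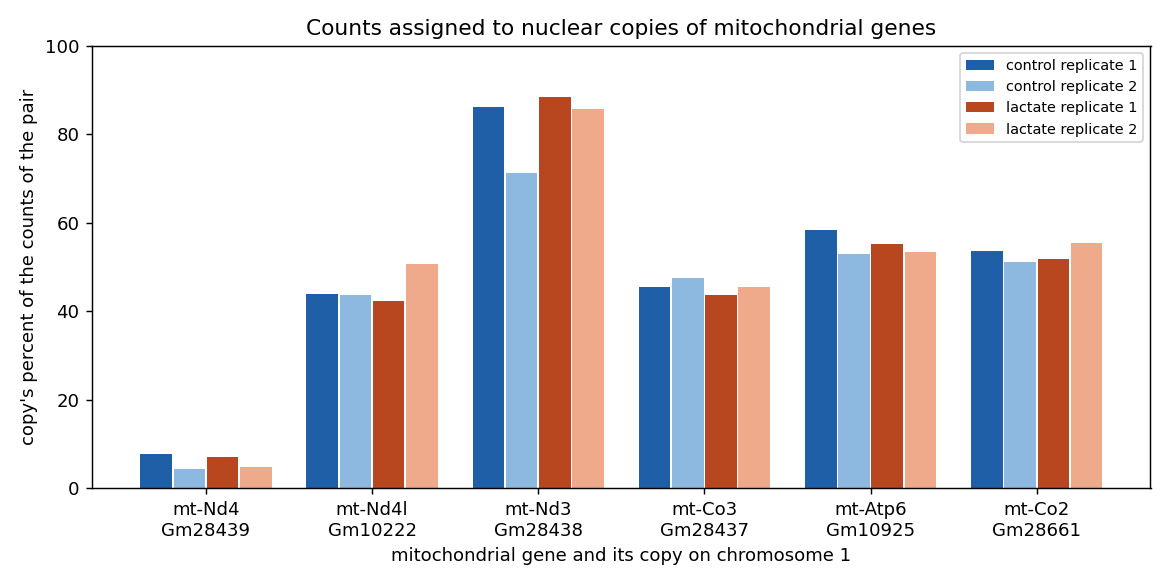
Bars give, for each library, the percent of the counts of a pair (y axis, 0 to 100) that was assigned to the nuclear copy on chromosome 1, for the 6 pairs named on the x axis. The copies of mt-Co2, mt-Atp6, mt-Co3 and mt-Nd4l took 42.3% to 58.4%, that of mt-Nd3 up to 88.3% and that of mt-Nd4 at most 7.73%.

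The nuclear genes that serve this genome, and cytosolic ribosomal proteins, were followed in 6 lists, beside the 2 marker lists. In the replicate comparison the mitochondrial mRNAs and the nuclear-encoded subunits that join them had medians of opposite sign. Of 80 nuclear genes of the respiratory chain and ATP synthase, 66 were lower in replicate 1 at an adjusted p under 0.05 and none was higher in edgeR (68 at an unadjusted p under 0.05 in either direction), with a median log2 fold change of -0.44. A lower level at this limit was found for 16.4% of all genes tested, and 1.13% were called lower. The 6 called lower by over 2-fold were the ATP synthase subunits Atp5k (-1.78), Atp5e (-1.75) and Atp5g3 (-1.01), the complex III subunit Uqcr11 (-1.03), the complex I subunit Ndufa2 (-1.03) and the cytochrome c oxidase subunit Cox6b1, which was just past 2-fold. Atp5k had 4.34 and 2.47 CPM in replicate 1 and 10.4 and 12.8 CPM in replicate 2 (control and lactate).

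The genes of cytosolic ribosomal proteins shared this direction, with 71 of 87 lower and 2 higher and a median of -0.56, and 9 were called lower, among them Rps29 (-1.66), Rps19 (-1.56) and Rps28 (-1.56). The mitochondrial ribosomal proteins, which translate the mitochondrial mRNAs, had 33 of 78 lower, 9 higher and a median of -0.13. Among all genes tested 16.4% were lower and 16.0% higher, and 1.13% were called lower.

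The genes for transcription and replication of the mitochondrial genome had 3 of 23 higher in replicate 1, 7 lower and a median of -0.03, beside 16.0% higher and 16.4% lower among all genes tested. The RNA polymerase gene Polrmt had 50.0 and 42.9 CPM in replicate 1 and 56.7 and 50.2 CPM in replicate 2 (log2 fold change -0.20, adjusted p = 0.0271 in edgeR), and the gene of the transcription factor Tfam had -0.20 (adjusted p = 0.0182 in edgeR). Tfb2m, which encodes the other initiation factor, was higher, at 0.45 (adjusted p = 0.00135 in edgeR).

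Among genes for processing and stability of mitochondrial RNA, 6 of 31 were higher and 9 lower, beside the same 16.0% and 16.4% of all genes tested, which hold for the other lists of this comparison too. Pnpt1, for a ribonuclease of the mitochondrial RNA degradosome, was higher at 0.38 and Slirp, for the partner of Lrpprc in binding mitochondrial mRNAs, was lower at -0.34. Lrpprc (-0.06) and the poly(A) polymerase gene Mtpap (0.16) did not pass the test. Of the nuclear regulators, 4 of 8 were higher and 1 lower, Gabpa at 0.56 and Esrra at -0.68. None of the transcription, processing, regulator and mitochondrial ribosomal protein genes was called by edgeR. Of the ES cell markers, 2 of 10 were higher and 2 lower, with Dppa5a (-1.08) called, and of the feeder markers 1 of 16 was higher and 6 lower, with none called.

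With lactate, none of these lists had a called member in edgeR or a member at an adjusted p under 0.05. The numbers at an unadjusted p under 0.05 compare with 23.1% of all genes tested, and were 5 of 23 for transcription and replication, 3 of 31 for RNA processing, 2 of 8 for the regulators, 2 of 80 for the respiratory chain and ATP synthase, 11 of 78 for mitochondrial and 3 of 87 for cytosolic ribosomal proteins, 4 of 10 for ES cell and 4 of 16 for feeder markers. The smallest adjusted p values were those of the mitochondrial ribosomal protein gene Mrpl14 (log2 fold change -1.18, adjusted p = 0.0571 in edgeR), the RNA granule gene Grsf1 (-0.77, 0.0722), the helicase gene Twnk (-0.57, 0.0722) and the transcription regulator Mterf3 (0.64, 0.0727). Twnk had 67.1 and 68.9 CPM in the control libraries and 46.2 and 45.4 CPM in those with lactate, without overlap. Polrmt (-0.20), Tfam (0.14), Tfb2m (-0.14), Lrpprc (0.13), Slirp (-0.40), Mtpap (0.18) and Pnpt1 (-0.20) were not called.

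**Figure D5:**
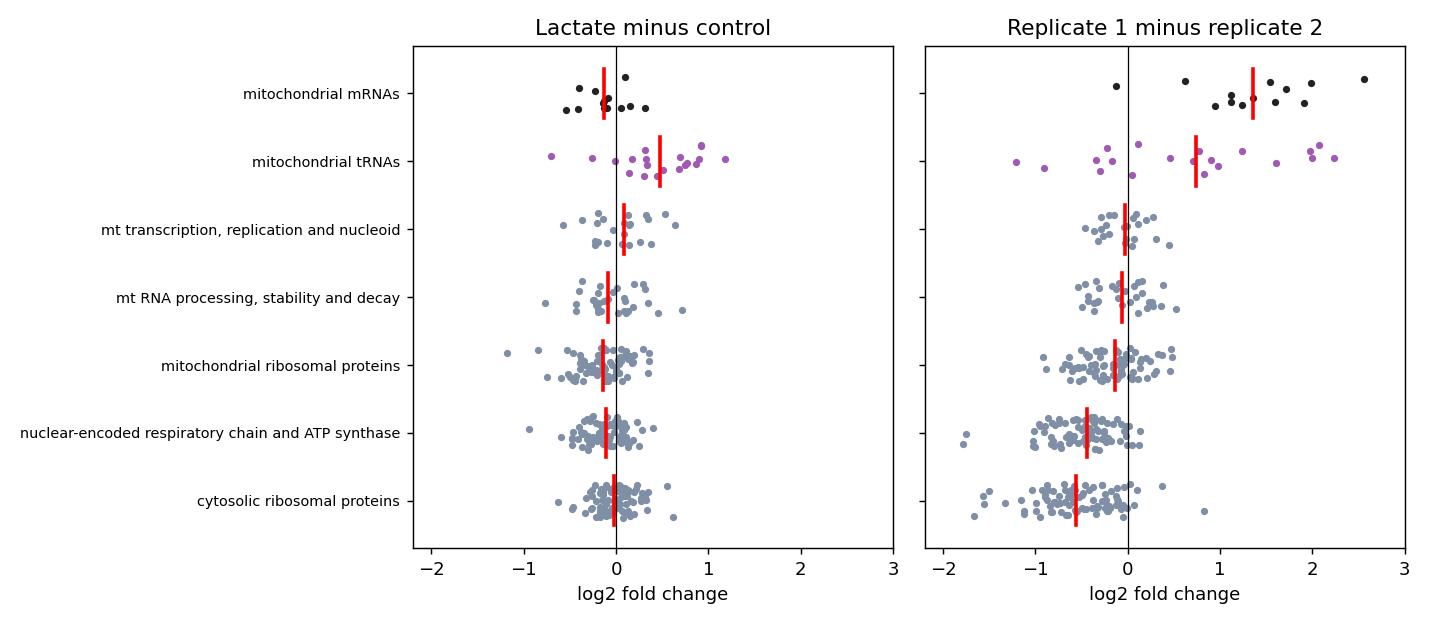
Points give the log2 fold change (x axis) of each tested gene in the mitochondrial mRNAs, the mitochondrial tRNAs and 5 lists of nuclear genes (y axis, with vertical scatter only to separate points), for lactate against control on the left and replicate 1 against replicate 2 on the right. Red lines are medians, at 1.35 for the mitochondrial mRNAs, -0.44 for the nuclear respiratory chain and ATP synthase genes and -0.56 for the cytosolic ribosomal proteins on the right.

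Some features of the libraries moved with the replicate number. RSEM's effective length of a long gene was 324 and 328 bases under its length in replicate 1 and 318 and 308 bases in replicate 2 (control and lactate), a quantity set by the fragment lengths. The 1206 other genes under 40% GC had a median log2 fold change of 0.33 between the replicate numbers, whereas those of 60% GC and over had -0.16. The 12 mitochondrial mRNAs under 40% GC had a median of 1.30. Among other genes with transcripts of 400 to 800 bases the median was -0.13, and the 4 mitochondrial mRNAs of that length had 1.12. The part of fragment length, base composition and transcript length in the mitochondrial difference was not tested beyond these values.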

How the data were processed

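The authors trimmed reads with cutadapt 1.16 and mapped them with STAR to the mouse genome with GENCODE release M23 (mm10). The deposited raw counts cover 55335 genes and 1153 transposable element families. The study's methods name STAR's GeneCounts setting, which counts reads with 1 match, but the counts lie on both genes of identical pairs, so the setting behind the deposited table is uncertain, and the tool used for transposable elements is not given in the sources used here. The authors also deposited expected counts, TPM and FPKM from RSEM. Mitochondrial members were matched by Ensembl identifier. Members and gene lists were chosen with earlier results of these data known.

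Genes passing edgeR's filterByExpr were normalized by TMM and tested with edgeR 4.0.16 (quasi-likelihood, R 4.3.3), with condition alone for lactate and with condition plus replicate number for the replicates. Adjustment followed Benjamini and Hochberg over 18661 genes. A call needed an adjusted p under 0.05 and a change of over 2-fold. The SE is the log2 fold change divided by the square root of F. Totals of 18067562 to 19077885 counts per library limit precision for tRNAs. Alternatives included DESeq2 1.42.0 and limma 3.58.1, for which log2(FPKM + 1), log2(FPKM + 0.1) and log2(TPM + 1) were used for genes with a mean FPKM above 0.1. Expected counts were rounded. Copies were sought with BLAST 2.17.0 among 141730 GENCODE release M21 transcripts. Every mt- gene could be named, as could copies, called list members, else the 3 most significant, and Polrmt, Tfam, Tfb2m, Lrpprc, Slirp, Mtpap and Pnpt1. Tests were tried on simulated counts. Transposable elements were left out of the tests.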

Additional observations from a re-analysis of the deposited data

How the results depend on the processing

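With lactate, 0 members were called in every alternative fit of all 4 libraries except the replicate block. That fit called 1, mt-Tg, at a log2 fold change of 1.18, beside 6.19% of all genes called, and had 18 of 35 members at an adjusted p under 0.05 (13 higher, 5 lower), beside 44.5% of all genes, among them mt-Rnr1 (0.45, adjusted p = 3.35e-05 in edgeR) and mt-Rnr2 (-0.53, adjusted p = 2.25e-06 in edgeR). The deviations of the same-numbered libraries from their group means correlated at 0.638 over genes (0.632 without the mitochondrial genes), a hint from the data and not the design, since the labels do not say what a number marks. Leaving out 1 library in turn gave 0 to 10 calls with lactate, with 10 without lactate replicate 1 (3.56% of all genes), 3 without lactate replicate 2 (4.75%) and 0 without control replicate 1 (0.0429%) or 2 (0.525%), and medians of -0.46 to 0.95. The lone library left in a group is assumed to vary like the other group. The difference in share with lactate ran from -1.21 to 1.84 percentage points, and was below 0 without control replicate 2 (-1.21) and without lactate replicate 1 (-1.13).

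Between the replicate numbers, RSEM expected counts called 9 of 15, beside 1.95% of all genes, with a median of 1.27. No member was called by limma-trend on log2(FPKM + 1), log2(FPKM + 0.1) or log2(TPM + 1) (0, 0 and 0 of 15) or without the group term (0 of 35). Leaving out 1 library, without the group term, gave 0 to 5 calls, beside 0 to 6 of all genes, with medians of 1.05 to 1.18 and share differences of 2.78 to 3.17 percentage points. Those fits share the lack of the group term, so the part of the library left out was not tested.

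For lactate, mt-Tg ran from 0.44 to 1.64 over the libraries left out, and mt-Nd3 turned from -0.41 to 0.30 with expected counts, 0.34 with FPKM at either pseudocount, 0.35 with TPM and 0.19 with its copies. Between the replicate numbers it turned from -0.13 to 0.10 with FPKM at either pseudocount, 0.15 with TPM and 0.55 with its copies. It was 0.17 without control replicate 2 and without the group term. The value of mt-Atp8 turned from 1.98 to -7.07, -8.73 and -7.28 with FPKM + 1, FPKM + 0.1 and TPM + 1, where its effective length is 0 in 3 libraries. Leaving out 1 library in turn also moved the lactate values, none of them called with all 4 libraries, across 0: mt-Rnr1 ran from -0.55 to 1.31, mt-Rnr2 from -1.17 to 0.0029, mt-Co1 from -0.39 to 0.73, mt-Cytb from -0.95 to 0.56 and mt-Nd6 from -1.86 to 1.73. In these fits, which lack the group term, the replicate value ran from -0.39 to 0.17 for mt-Nd3 and from -1.48 to 0.047 for mt-Tg. The highest value of mt-Tg was the one without lactate replicate 2. The cause was not tested.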
